A study of Mus musculus with 15 samples.

Results

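Skeletal muscle RNA of mice with either of 2 Pdgfrb mutations was compared, as one group of 10 samples, with 5 control samples. The comparison used all 15 samples of the study and asked which genes both alleles moved in the same direction. Of 55536 genes listed, 15807 reached a value of 10 in 5 or more of the 15 samples and were tested. All samples were labelled as skeletal muscle of male mice 2 months old. The 5 control samples carried the genotype label wild type. The 5 knockout samples were labelled PdgfrB Knock Out, and the 5 D489V samples were labelled PdgfrB D489V, an allele that the design text calls constitutively active. Both mutations are given there as specific to myogenin, so that the recombined cells are differentiating muscle cells and fibres, while other cell types of the muscle should keep their own Pdgfrb. The labels do not name the muscle, the strain, the driver line, the litter or whether controls carried the driver, and they do not say that each sample is one mouse, so that p-values measure the spread between these samples.

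Pdgfrb encodes the beta receptor for platelet-derived growth factor (PDGF), a receptor tyrosine kinase. A PDGF dimer joins a pair of receptors, which phosphorylate each other and recruit adaptor proteins that pass the signal to the Ras-ERK, PI3 kinase-AKT, phospholipase C gamma and STAT routes. In muscle the receptor is best known from pericytes, vascular smooth muscle and connective tissue cells, where PDGF-B released by endothelial cells keeps mural cells on the vessel wall. Myogenin is the transcription factor of muscle cells that leave the cell cycle and fuse into fibres.

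The values were gene counts that the authors had normalized and rounded. They summed to between 29815559 and 36489777 per sample, and 20799 to 23783 genes per sample had a value above 0. Summed fast fibre genes, such as the fast myosins and troponins that define the labelled tissue, reached 6173882 to 8577301 in every sample. Knockout replicate 3 held a normalized count of 3165 for Xist, the RNA of the inactive X chromosome, against at most 101 elsewhere, and 367 for the Y-linked gene Ddx3y against 1437 to 3887 elsewhere, although all samples were labelled male. Summed markers of B cells, T cells and lymph node venules were 8474 in control 5 and 3026, 7738 and 2029 in knockout replicates 3 to 5, against 51 to 453 in the other 11 samples.

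Few genes separated the mutants from the controls. With limma, 2 of 15807 genes passed a Benjamini-Hochberg adjusted p of 0.05 in the 10 mutants against 5 controls, which is 0.0127% of the genes tested, and both rose. At an unadjusted p under 0.05 there were 598 genes (3.78%), 250 higher (1.58%) and 348 lower (2.2%), against 790 on average were no gene different. All 10 mutants lay outside the range of the 5 controls for 10 genes (0.0633%), 6 above (0.038%) and 4 below (0.0253%). The median log2 change over all genes tested was 0.013. When a gene had to pass against the controls in each allele separately with one sign, 0 genes passed the adjusted threshold, and 133 (0.841%) had an unadjusted p under 0.05 in both alleles, 70 higher (0.443%) and 63 lower (0.399%). No tool other than limma was run on this test. The per-allele changes given below share the 5 controls, so that their likeness in sign is no independent evidence. The alleles themselves differed from each other more often than either differed from control: 2347 genes (14.8%) passed in knockout against D489V in a limma fit of the 3 groups, 15 (0.0949%) in knockout against control and 1 (0.00633%) in D489V against control. On the first principal component, the axis of most variance (31.8%), controls were at -48.4, -36.7, -4.9, 20.0 and 51.0. Knockout samples were at 3.3 to 59.9 and D489V samples at -43.9 to -11.5. The controls thus reached into the ranges of both alleles on this axis. What lies behind the axis was not tested.

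**Figure D1:**
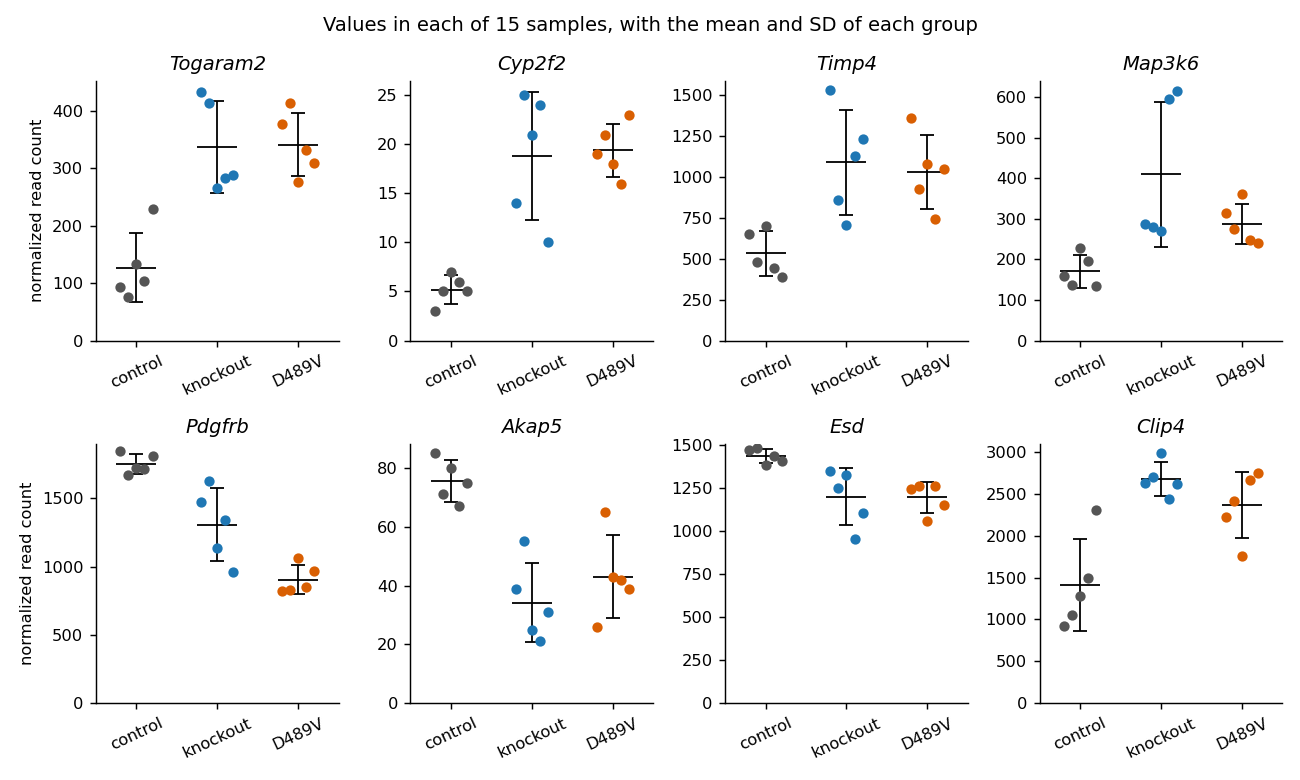
Normalized read counts (y axes, from 0) of 8 genes, with 1 point per sample for 5 samples of each group and lines at the mean and 1 SD of each group. For Togaram2 the mutants sit between 265 and 433 and the controls between 76 and 228, and for Pdgfrb all 10 mutants, at 820 to 1628, sit below all controls.

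Togaram2 rose most clearly in both alleles. It encodes a TOG-domain protein of the family that acts on ciliary microtubules, and it lies on chromosome 17 from 71673261 to 71729669 on the plus strand (GRCm38, protein-coding, ENSMUSG00000045761). The normalized counts were 93, 76, 133, 103 and 228 in controls. They were 433, 414, 265, 282 and 288 in knockout and 376, 413, 276, 331 and 308 in D489V samples. Every mutant sample lay above every control, and control 5 was the control nearest to them. The controls averaged 127 ± 60.4 (SD, n = 5) and the mutants 339 ± 64.7 (SD, n = 10). On the log2 scale Togaram2 rose by 1.50 (standard error 0.207, limma adjusted p 0.0249), and the two-sided exact permutation test of 10 against 5 samples gave 0.000666, the smallest p it can give. The lack of overlap fixes that permutation p, and Togaram2 was picked by its values in these same samples, so it is no separate evidence. Against control the log2 change was 1.48 in knockout and 1.52 in D489V, each with a standard error of 0.243, and the difference between the alleles was -0.04 with that same standard error. In the test that required both alleles, Togaram2 had the lowest adjusted p of all genes, at 0.244 in limma. The call in the pooled group was lost when any single one of controls 1 to 4, knockout 2 or D489V 1, 2, 4 or 5 was left out, with limma adjusted p values of up to 0.17 and log2 changes between 1.34 and 1.74.

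Cyp2f2 was the other gene that rose. It encodes a cytochrome P450 best known for oxidizing small aromatic compounds in lung airway cells, and it was read at low levels here (chromosome 7, 27119909 to 27133660, plus strand, protein-coding). The normalized counts were 3, 5, 7, 6 and 5 in controls. They were 14, 25, 21, 24 and 10 in knockout and 19, 21, 18, 16 and 23 in D489V samples. The groups did not overlap, and knockout 5 and knockout 1 were the mutants nearest to the controls. The means were 5.20 ± 1.48 (SD, n = 5) and 19.1 ± 4.73 (SD, n = 10). On the log2 scale Cyp2f2 rose by 1.69 (standard error 0.253, limma adjusted p 0.0347), with 1.64 in knockout and 1.74 in D489V. On this scale, log2(value + 1), the change of a gene with so few counts is understated. The call was lost in 13 of the 15 fits that left out 1 sample, with limma adjusted p values of up to 0.175.

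The 250 bases before the start of Cyp2f2, and the like stretch of Timp4, a gene described further on, are shown because these 2 genes lay above the controls in all 10 mutants and each stretch holds one E-box of the form CAGCTG, the letters that myogenin and its relatives can bind. Sequences are RefSeq promoters on GRCm38.p6 in the direction of the gene, with the E-box in capitals. The Cyp2f2 stretch is chr7:27119705-27119954 (plus strand) and the Timp4 stretch is chr6:115252206-115252455 (minus strand).
Cyp2f2: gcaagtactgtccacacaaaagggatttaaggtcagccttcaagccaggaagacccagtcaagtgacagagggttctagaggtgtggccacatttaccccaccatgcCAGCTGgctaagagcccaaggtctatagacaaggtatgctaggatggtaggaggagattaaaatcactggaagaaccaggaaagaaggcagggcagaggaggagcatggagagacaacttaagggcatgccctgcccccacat
Timp4: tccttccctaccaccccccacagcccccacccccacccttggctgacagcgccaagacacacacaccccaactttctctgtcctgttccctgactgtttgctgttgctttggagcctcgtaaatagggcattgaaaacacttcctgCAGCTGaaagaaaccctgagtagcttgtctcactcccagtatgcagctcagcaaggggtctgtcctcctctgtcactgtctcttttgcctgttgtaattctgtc
The starts are those of RefSeq, and the one used for Cyp2f2 lies within the GENCODE span of the gene given above, so that the stretch shown ends inside that span. The E-box starts 143 bases before the RefSeq start of Cyp2f2 and 104 bases before that of Timp4. These 2 stretches were chosen after they were seen to hold the motif. Of the 6 genes with all mutants above the controls, 3 had a promoter in the table, and the third, Map3k6, held none. Of the 4 genes with all mutants below, 3 had one, and Akap5 held the motif while Esd and Spdl1 did not. Of the first promoters listed for 27025 genes, 12.8% hold CAGCTG, which reads the same on both strands, in the same length, so that a match is common and describes only the letters. Togaram2 has no entry in the promoter table.

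**Figure D2:**
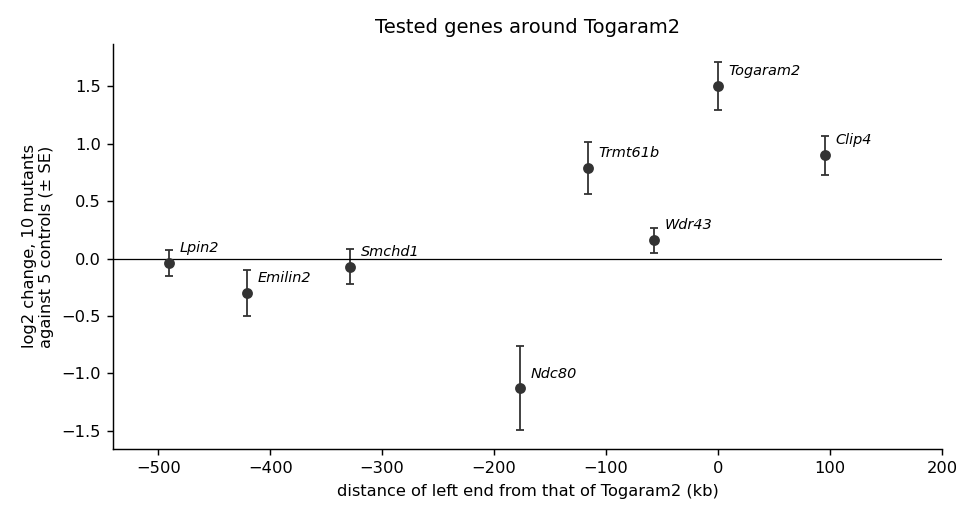
Log2 change of the 10 mutants against 5 controls (y axis, bars of 1 standard error) for Togaram2 and the 7 tested genes within 500 kb, against the distance in kb between their left ends on the chromosome (x axis). Clip4, at 95.2 kb, and Trmt61b, at -116.2 kb, sit at 0.90 and 0.79, while Ndc80, at -177.2 kb, sits at -1.13 and Wdr43, at -57.4 kb, at 0.16.

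The genes around Togaram2 were looked at after its values had been seen. Within 500 kb on either side, 7 other genes were tested, and 3 of them had an unadjusted p under 0.05, against 3.78% of all genes. Clip4, which encodes a protein with the microtubule-binding CAP-Gly domain, starts 95.2 kb beyond the start of Togaram2. Its normalized counts were 921, 1058, 1282, 1498 and 2310 in controls. They were 2628, 2700, 2991, 2442 and 2611 in knockout and 2226, 2415, 1761, 2662 and 2750 in D489V samples. Of the 10 mutants, 8 lay above all controls, and control 5 was again the highest control. Clip4 had a log2 change of 0.90 (standard error 0.169, limma adjusted p 0.202), 0.99 in knockout and 0.80 in D489V. Without control 5 it was 1.09 with a limma adjusted p of 0.00451, and Clip4 and Togaram2 then both passed the test that required both alleles. Trmt61b, here the entry that GENCODE M21 annotates as an antisense gene, had a log2 change of 0.79. Whether strand was used in counting is not given in the sources used here, so its reads cannot be told apart from those of the gene it overlaps. Ndc80, which encodes a subunit of the outer kinetochore and so belongs with the cell cycle genes described further on, had a log2 change of -1.13. Around Cyp2f2, 1 of 16 genes within 500 kb had an unadjusted p under 0.05, and around Timp4 0 of 10. Around other genes described further on, the counts were 4 of 31 for Gadd45gip1, 1 of 18 for Pdgfrb and 0 of 1 for Gm13453.

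Pdgfrb itself (chromosome 18, 61045150 to 61085061, plus strand) was read in all samples. In a bulk sample, fewer cells of a type that expresses a gene and less RNA per cell cannot be told apart, here and in what follows. The normalized counts were 1848, 1673, 1720, 1716 and 1811 in controls. They were 1475, 1628, 1138, 1339 and 958 in knockout and 820, 828, 1062, 849 and 970 in D489V samples. All 10 mutants lay below all 5 controls, with knockout 2 nearest to them. The means were 1754 ± 72.9 (SD, n = 5) and 1107 ± 285 (SD, n = 10), a log2 change of -0.70 (standard error 0.152). The exact permutation p was 0.000666, the smallest possible, but the limma adjusted p over all genes was 0.585. The 2 alleles differed: the log2 change was -0.45 in knockout and -0.96 in D489V, and the difference of 0.51 passed (limma adjusted p 0.0192). A pooled group of 10 carries that difference as spread, and in the fit of 3 groups the mean of both alleles had the same log2 change of -0.70 with a limma adjusted p of 0.0275. The samples whose receptor is labelled active held less Pdgfrb RNA on average than those labelled knockout, while the 2 groups overlapped.

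Of the other PDGF genes, the ligand gene Pdgfb came nearest to a shared shift. Its normalized counts were 1537, 1642, 1552, 1613 and 1635 in controls. They were 1052, 1088, 793, 914 and 1076 in knockout and 1372, 1576, 1375, 1259 and 1194 in D489V samples. All 10 mutants except D489V replicate 2 lay below every control. Its log2 change was -0.47 (standard error 0.130, limma adjusted p 0.902). It was -0.71 in knockout and -0.24 in D489V, a difference of -0.46 that passed (limma adjusted p 0.0117), so that the order of the alleles was the reverse of that for the receptor. Pdgfc, a ligand of the alpha receptor, was at 34 to 53 in controls and at 41 to 81 in mutants, with a log2 change of 0.38. The log2 changes were -0.11 for the ligand gene Pdgfa, -0.05 for the ligand gene Pdgfd, 0.04 for Pdgfra, which encodes the alpha receptor and was at -0.17 in knockout and 0.26 in D489V (limma adjusted p 0.0485 for the difference), and -0.20 for Pdgfrl, which encodes a receptor-like protein. Of these 7 ligands and receptors, 0 were called. At an unadjusted p under 0.05, 1 was higher and 2 were lower, against 1.58% and 2.2% of all genes.

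Among the proteins that carry the receptor signal inside the cell, no gene was called. Of 24 transducer genes, 0 passed after adjustment, and their median log2 change was 0.015. At an unadjusted p under 0.05, 2 were higher, against 1.58% of all genes. These 2 were Akt2, the AKT kinase of insulin-responsive tissues, at 0.28, and Pik3r1, the regulatory subunit of PI3 kinase, at 0.28. Akt2 was at 4813 to 7538 in controls and at 5482 to 8862 in mutants, 7 of which lay above all controls. Of 12 ERK feedback genes, which rise when ERK signals, 1 was lower at an unadjusted p under 0.05, against 2.2% of all genes. It was Spred1, at a log2 change of -0.24. The list had medians of opposite sign in the alleles, -0.25 in knockout and 0.13 in D489V, and 5 of its 12 genes passed in knockout against D489V, against 14.8% of all genes. Among these were the ERK feedback inhibitors Dusp6, at -0.42 in knockout and 0.03 in D489V (limma adjusted p 0.00606 for the difference), and Spry2, at -0.45 and 0.14 (limma adjusted p 0.0101).

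Beside Togaram2, Cyp2f2 and Pdgfrb, 7 genes had no overlap between mutants and controls. None of them passed the adjusted threshold in limma, so their values are given without a call. For each of them the exact permutation p was 0.000666, which their lack of overlap fixes.

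Timp4 encodes an inhibitor of matrix metalloproteinases that is abundant in heart and muscle. Its normalized counts were 652, 483, 699, 442 and 387 in controls. They were 1530, 862, 709, 1126 and 1230 in knockout and 1362, 927, 1079, 745 and 1047 in D489V samples. Knockout 3, at 709, was the mutant nearest to the highest control. The means were 533 ± 136 (SD, n = 5) and 1062 ± 264 (SD, n = 10), a log2 change of 0.99 (standard error 0.183, limma adjusted p 0.199). It was 1.02 in knockout and 0.96 in D489V.

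Map3k6, a stress-activated kinase of the MAP kinase cascade, was at 134 to 228 in controls. The knockout samples ran from 269 to 615 and the D489V samples from 240 to 360, and knockout 4 and 5, at 596 and 615, were the highest. A log2 change of 0.97 resulted (limma adjusted p 0.693). Cd14, the lipopolysaccharide co-receptor of macrophages, was at 35, 32, 34, 34 and 28 in controls and at 36 to 70 in mutants, with a median of 51.5 and a log2 change of 0.65. The groups were separated by 1 count. Of 12 macrophage genes, 1, Cd14 itself, had an unadjusted p under 0.05, against 3.78% of all genes. Gm7335, a processed pseudogene whose reads can come from a near-identical gene, was at 0 to 6 in controls and at 8 to 29 in mutants.

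Akap5 encodes an anchor for protein kinase A and calcineurin at the membrane. Its normalized counts were 85, 71, 80, 67 and 75 in controls. They were 39, 55, 25, 21 and 31 in knockout and 26, 65, 43, 42 and 39 in D489V samples. D489V replicate 2, at 65, was close to the lowest control at 67. Akap5 had a log2 change of -1.02 (standard error 0.232, limma adjusted p 0.686), with -1.20 in knockout and -0.85 in D489V. Esd, which encodes esterase D, an enzyme of formaldehyde detoxification, was at 1383 to 1479 in controls and at 954 to 1349 in mutants. The difference was small, a log2 change of -0.27 in each allele, beside a control SD of 40.9 (n = 5). Spdl1, which brings dynein to the kinetochore in mitosis, was at 19 to 29 in controls and at 3 to 17 in mutants.

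**Figure D3:**
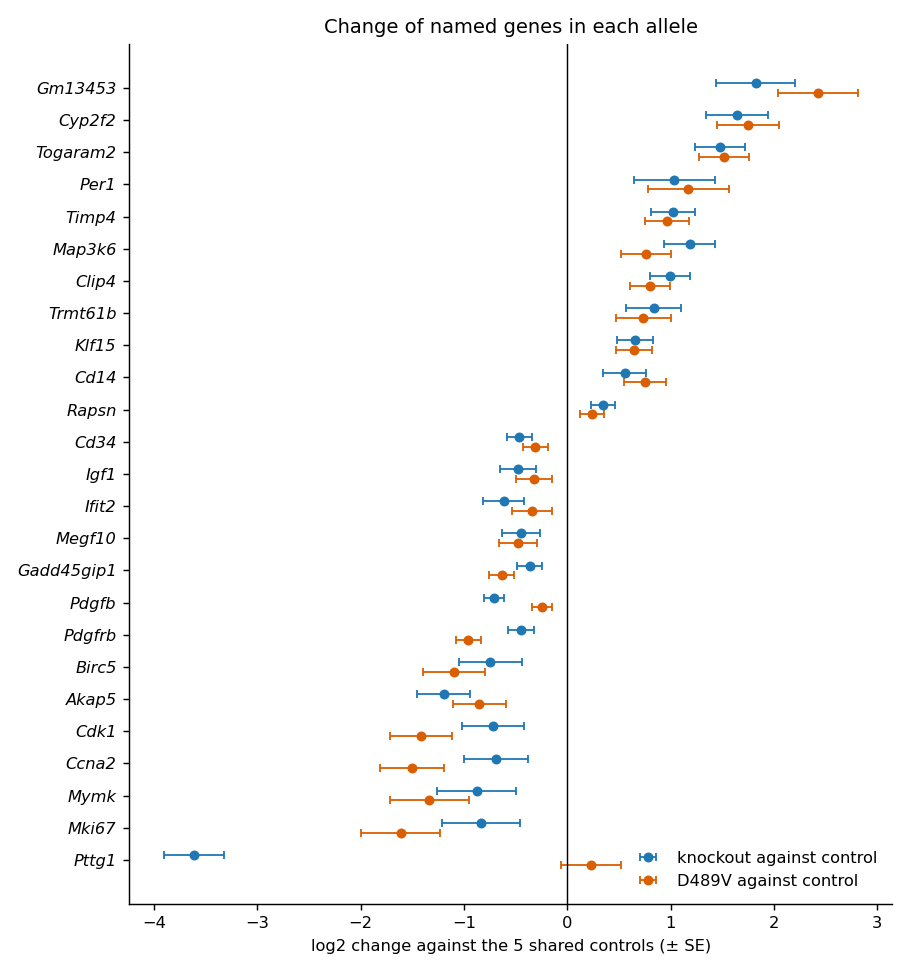
Log2 change against the shared 5 controls (x axis, bars of 1 standard error) in knockout and in D489V for named genes, from the fit of 3 groups. Both points of Togaram2 and Cyp2f2 lie between 1.48 and 1.74, those of Pdgfrb at -0.45 and -0.96, and those of Pttg1 at -3.61 and 0.23.

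The choice of fit decided 3 further calls. In the fit of 3 groups, 5 genes (0.0316%) passed for the mean of both alleles, namely Togaram2, Cyp2f2, Pdgfrb, Gm13453 and Pttg1, and 854 (5.4%) had an unadjusted p under 0.05. Gm13453 is a processed pseudogene, so that its reads may come from a gene of almost the same sequence. It was at 36, 55, 26, 22 and 28 in controls. It was at 33, 141, 164, 112 and 227 in knockout and at 204, 164, 158, 170 and 180 in D489V samples. Knockout 1, at 33, was the only mutant within the control range. Gm13453 had a log2 change of 2.12 with a limma adjusted p of 0.0782 in the pooled group, and it was 2.35 with an adjusted p of 7.92e-05 without knockout 1. Pttg1, which encodes securin, the inhibitor of separase, was at 538 to 1294 in controls and, close to them, at 564 to 1210 in D489V samples, but at 43 to 102 in knockout. Its log2 change was -3.61 in knockout and 0.23 in D489V. Its call rested on the knockout, and the alleles did not share a direction.

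Genes of cell division made up the list with the most members below the controls. The list was drawn up with earlier results of these data known, so its direction is not independent evidence. Of 36 cell cycle genes tested, 33 had a log2 change below 0, and 21 were lower and 0 higher at an unadjusted p under 0.05, against 2.2% lower among all genes. None was called in limma after adjustment over all genes. The median log2 change was -0.69, against 0.013 over all genes, with -0.46 in knockout and -1.02 in D489V. At an unadjusted p under 0.05 in both alleles separately, 4 of 36 were lower, against 0.399% of all genes.

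Cdk1, the kinase that drives entry into mitosis, was at 54, 57, 43, 39 and 80 in controls. It was at 16, 52, 27, 29 and 48 in knockout and at 18, 15, 26, 17 and 22 in D489V samples. All D489V samples and knockout 1, 3 and 4 lay below every control, while knockout 2 and 5 were within the control range. Cdk1 had a log2 change of -1.07 (standard error 0.294, limma adjusted p 0.902). Mki67, the proliferation marker, was at 188 to 386 in controls, while knockout samples ran from 44 to 246 and D489V samples from 53 to 128, a log2 change of -1.22 (limma adjusted p 0.931). Ccna2, the cyclin of S phase and G2, was at 75 to 113 in controls, while knockout samples held 22 to 96 and D489V samples 25 to 43, a log2 change of -1.10. Birc5, or survivin, of the chromosomal passenger complex, had a log2 change of -0.92, and Kif23, a kinesin of cytokinesis, had one of -1.01. Espl1, or separase, the protease that opens cohesin rings at anaphase and a member of the separate list of securin, separase and cohesin genes, was at 36 to 69 in controls and 11 to 47 in mutants, with log2 changes of -0.82 in knockout and -0.68 in D489V. In each of these 6 genes 7 or 8 of the 10 mutants lay below all controls. The members of the list that did not share the direction were Aurka, Ccne2 and Pcna, with log2 changes of 0.35, 0.22 and 0.02, of which the last 2 came to 0 or below without control 1.

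**Figure D4:**
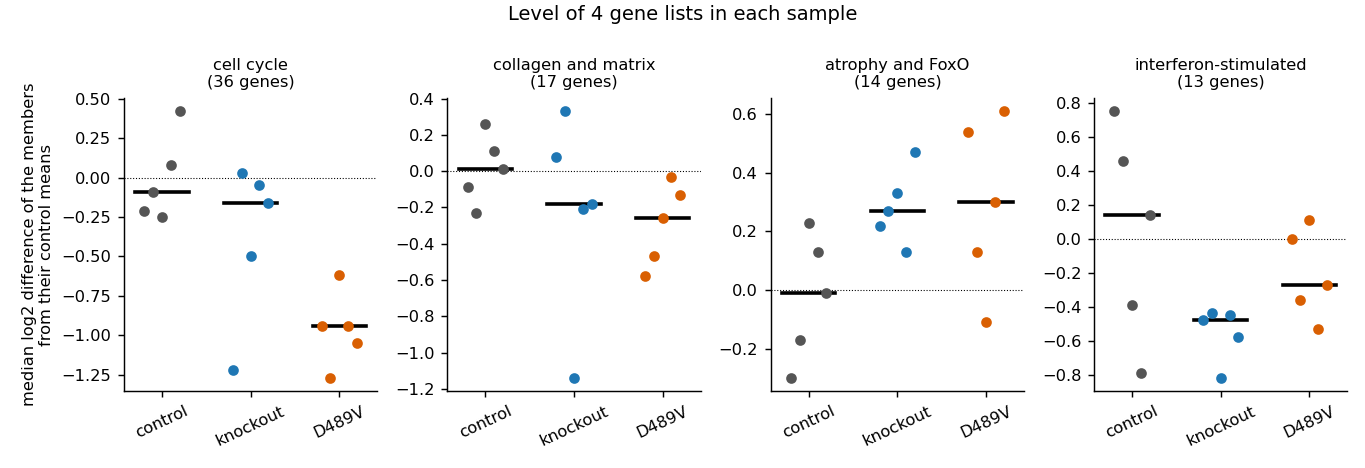
Level of 4 gene lists per sample (y axes), as the median over the tested members of the log2 difference from each member's control mean, with 1 point per sample and a line at the group's median. Cell cycle levels span -0.25 to 0.42 among controls, -1.22 to 0.03 among knockout and -1.27 to -0.62 among D489V samples.

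By sample, the cell cycle list separated D489V from the controls but not the knockout. As the median difference of its members from their control means on the log2 scale, its level was -1.27 to -0.62 in D489V samples, below every control at -0.25 to 0.42. Knockout samples ran from -1.22, in knockout 1, to 0.03 and overlapped the controls. The number of members lower at an unadjusted p under 0.05 was 11 of 36 without control 5, the control with the most lymphoid marker RNA, and 21 of 36 without that sample and knockout 3 to 5. The part of lymphoid cells in this list was not tested beyond these counts.

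The 250 bases before the starts of Cdk1 and Mki67 are shown because genes of late cell division are known to carry certain motifs. These are CCAAT boxes (CCAAT, or ATTGG on the other strand) and the cell cycle homology region (TTTGAA, or TTCAAA on the other strand). Through the cell cycle homology region the DREAM complex holds such genes off in resting cells. Both motifs are in capitals, the sequences are RefSeq promoters on GRCm38.p6 in the direction of the gene, and both genes lie on the minus strand, at chr10:69352913-69353162 and chr7:135716380-135716629.
Cdk1: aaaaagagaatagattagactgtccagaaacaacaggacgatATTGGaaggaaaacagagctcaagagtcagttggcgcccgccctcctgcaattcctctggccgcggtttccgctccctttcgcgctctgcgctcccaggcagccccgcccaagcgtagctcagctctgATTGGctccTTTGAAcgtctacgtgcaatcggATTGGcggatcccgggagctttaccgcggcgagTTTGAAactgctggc
Mki67: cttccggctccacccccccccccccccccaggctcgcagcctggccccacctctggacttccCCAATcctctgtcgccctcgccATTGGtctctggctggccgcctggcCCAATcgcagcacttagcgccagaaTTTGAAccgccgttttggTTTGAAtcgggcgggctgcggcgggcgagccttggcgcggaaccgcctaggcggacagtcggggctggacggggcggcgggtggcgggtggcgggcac
The RefSeq start of Cdk1 lies inside its GENCODE span. Each stretch holds 2 copies of TTTGAA and 3 CCAAT boxes. Of the 36 cell cycle genes, 30 had a promoter in the table, and CCAAT, sought on both strands, was in 25 of these (83.3%), against 34.5% of the first promoters of 27025 genes. TTTGAA was in 8 of 30 (26.7%), against 16.3%, and the E-box CAGCTG was in 2 of 30 (6.67%), against 12.8%. These shares describe the letters of the promoters, and no factor was measured.

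Genes of muscle stem cells and of fusion gave few shared differences. Of 11 satellite cell genes, 0 were called, and the median log2 change was -0.001. Of these, 1 was higher and 3 were lower at an unadjusted p under 0.05, against 1.58% and 2.2% of all genes. Heyl, a Notch target that keeps satellite cells quiet, was at 517 to 577 in controls. It ran from 290 to 429 in knockout samples, all below the controls, and from 430 to 574 in D489V samples. Its log2 change was -0.54 in knockout and -0.19 in D489V, a difference of -0.35 that passed (limma adjusted p 0.0421). Megf10, a receptor that favours satellite cell division, was at 102 to 139 in controls and 60 to 118 in mutants, with nearly equal log2 changes of -0.45 and -0.48. Fgfr4, a fibroblast growth factor receptor of myoblasts, had a log2 change of -0.39, and Myf5, a myogenic transcription factor of satellite cells, had one of 0.31.

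The 12 myogenic regulators and fusion genes had a median of 0.075. Of these, 2 were lower at an unadjusted p under 0.05, against 2.2% of all genes. One was Mymk, or myomaker, the membrane protein that myoblasts need to fuse. Its normalized counts were 147, 117, 125, 179 and 86 in controls. They were 99, 125, 23, 94 and 56 in knockout and 82, 36, 38, 43 and 63 in D489V samples. All D489V samples but only 2 knockout samples lay below every control, and Mymk had a log2 change of -1.11 (standard error 0.336, limma adjusted p 0.968). The other was Myog, which encodes myogenin, to which the design text gives the mutations as specific. Myog was at 455 to 677 in controls and 317 to 561 in mutants, a log2 change of -0.32. Chrng, the fetal acetylcholine receptor subunit, was at 16 to 34 in controls and at 3 to 21 in mutants, a log2 change of -1.14. Rapsn, which clusters that receptor at the neuromuscular junction, had a log2 change of 0.29. Chrng was the only one of 10 developmental contractile and denervation genes with an unadjusted p under 0.05, against 3.78% of all genes. Rapsn was the only such gene of 11 neuromuscular junction genes. The medians of these lists were -0.08 and 0.05. Of 11 fast and 10 slow fibre genes, 0 had an unadjusted p under 0.05, with medians of 0.001 and 0.153. All 10 slow fibre genes had a log2 change above 0 in the pooled group. The alleles did not share that direction, with slow fibre medians of -0.09 in knockout and 0.34 in D489V. Summed slow fibre genes ran from 22438 to 222765 among the controls alone.

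All 14 genes of muscle atrophy and of FoxO, the transcription factor family that switches them on, had a log2 change above 0, 4 were higher at an unadjusted p under 0.05 against 1.58% of all genes, and none was called. That count was 1 without control 1 and 2 without control 2, with 13 of 14 genes above 0 in each case. In both alleles separately, 2 of 14 were higher at an unadjusted p under 0.05, against 0.443% of all genes. The median was 0.26, with 0.33 in knockout and 0.29 in D489V. Klf15, a glucocorticoid-induced regulator of amino acid breakdown, was at 463, 533, 842, 603 and 546 in controls. It was at 812, 867, 1248, 874 and 869 in knockout and at 1160, 828, 685, 861 and 1123 in D489V samples. Only control 3 reached into the mutant range. Klf15 had a log2 change of 0.65 (standard error 0.148, limma adjusted p 0.686), 0.66 in knockout and 0.64 in D489V. Bnip3, of mitophagy, had 0.35 and 0.32 in the 2 alleles. Ddit4, a stress-induced inhibitor of mTORC1, was at 439 to 2215 in controls, a range that held all mutants but one. Cdkn1a, the cell cycle inhibitor p21, was at 612 to 1364 in controls and at 785 to 1504 in knockout, within or near that range, but at 1455 to 3078 in D489V samples, a difference between the alleles of -0.96 that passed (limma adjusted p 0.0293). The ubiquitin ligase genes Fbxo32 and Trim63, the usual markers of atrophy, had log2 changes of 0.69 and 0.22. Fbxo32 was at 106 to 769 in controls and at 252 to 1267 in mutants, and its log2 change ran from 0.29 to 1.00 as single samples were left out. Igf1, the growth factor that opposes atrophy, was at 992 to 1299 in controls and at 469 to 995 in mutants, a log2 change of -0.40. It belongs to a separate list of 12 myostatin, activin and IGF genes, of which 6 had a log2 change above 0 and 6 below. That list had a median of -0.01, and Igf1 alone was lower at an unadjusted p under 0.05, against 2.2% of all genes.

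Muscle runs the circadian clock on its own as well as by cues from the brain. Of 17 clock genes, 0 were called, and 3 were higher at an unadjusted p under 0.05, against 1.58% of all genes. With 1 sample left out, that count ran from 2, without control 5, to 5, without knockout 1. Of the 17 genes, 12 had a log2 change above 0 and 5 below, down to -0.69. The median was 0.17, with 0.29 in knockout and 0.02 in D489V. In knockout against D489V, 6 passed, against 14.8% of all genes. Per1, a repressor of the clock, was at 548, 501, 2738, 2551 and 1180 in controls and at 1954 to 3338 in mutants, so that controls 1, 2 and 5 lay below all mutants and controls 3 and 4 among them. Its log2 change was 1.10 (limma adjusted p 0.968). Per2, its partner, was at 67 to 103 in controls, below every knockout sample at 118 to 591, while D489V samples ran from 74 to 171. Nfil3, a repressor of clock output, was at 861 to 1212 in knockout and at 419 to 664 in D489V samples, against 406 to 729 in controls. The alleles differed for both genes, by 1.14 for Per2 and 0.81 for Nfil3 (limma adjusted p 0.0498 and 0.0116). The time of day of collection is not in the labels.

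**Figure D5:**
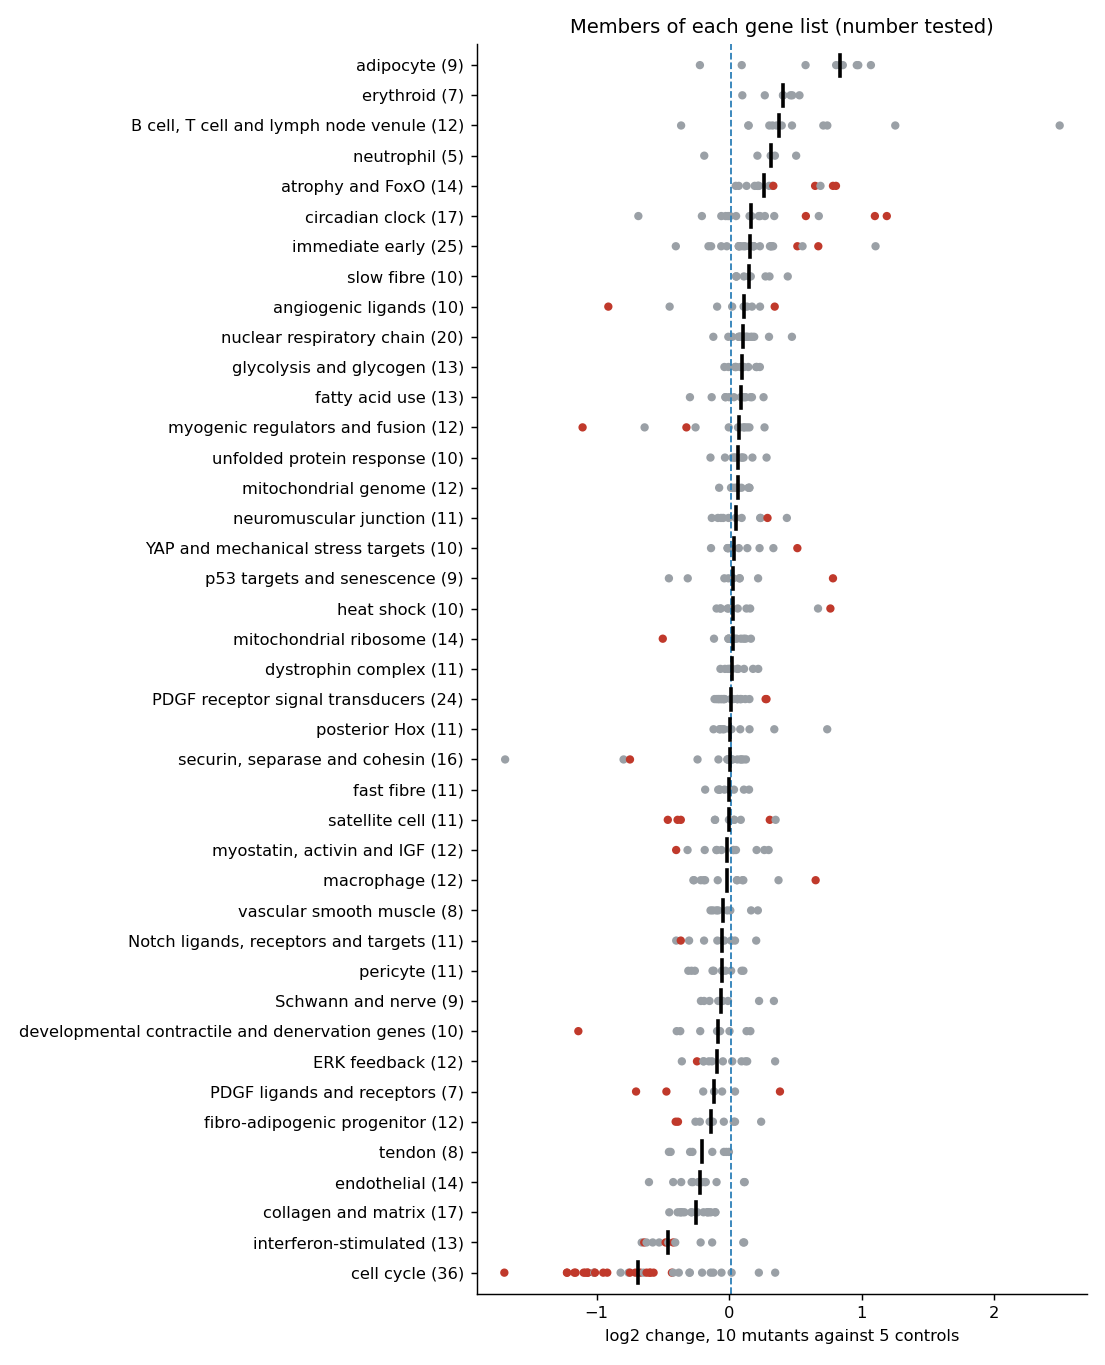
Log2 change of the 10 mutants against 5 controls (x axis) for each tested member of each gene list (1 point a gene), with members at an unadjusted p under 0.05 in red, the median of a list as a black bar and the median of all genes as a dashed line. The cell cycle list, with a median of -0.69 and 21 red points, lies farthest to the left, and the atrophy list, with a median of 0.26, has 4 red points.

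Matrix and interferon-stimulated genes held no call. All 17 collagen and matrix genes had a log2 change below 0, with a median of -0.25, yet 0 had an unadjusted p under 0.05. Col4a1 and Col4a2, the basement membrane collagens, were at -0.37 and -0.28, and Col1a1, the main fibrillar collagen, was at -0.45. Knockout 3 had the lowest level of the list, at -1.14 relative to the control mean, and without it 16 of 17 genes were below 0 with a median of -0.16. Without the 4 samples richest in lymphoid markers, 15 of 17 were below 0 with a median of -0.15. Fibro-adipogenic progenitors are the connective tissue progenitors of muscle. Of 12 of their genes, 9 had a log2 change below 0 and 3 above. The median was -0.14, with -0.29 in knockout and 0.02 in D489V. At an unadjusted p under 0.05, 2 were lower, against 2.2% of all genes. Of these, Cd34, a surface sialomucin, was at 2370 to 3121 in controls and 1551 to 2656 in mutants, a log2 change of -0.39. The other, the basement membrane collagen gene Col15a1, had a log2 change of -0.40.

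Of 13 interferon-stimulated genes, 11 were below 0 and 3 were lower at an unadjusted p under 0.05, against 2.2% of all genes, namely Ifit2, Usp18 and Oasl2, with log2 changes of -0.48, -0.42 and -0.64. The median was -0.46. The count of 3 rested on single controls: it was 0 without control 1, 1 without control 5, 5 without control 3 and 9 without control 4. Without D489V replicate 3 it was 6, and without the 4 samples richest in lymphoid markers it was 0. Oasl2, of the antiviral oligoadenylate synthetase family, was at 319 and 322 in controls 1 and 2, above all mutants, but at 126 to 237 in controls 3 to 5, within the mutant range of 85 to 262.

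Markers of the vessel wall, where the receptor is usually found, held no called gene. Of 11 pericyte genes and of 8 vascular smooth muscle genes, 0 had an unadjusted p under 0.05, with medians of -0.05 and -0.05. The medians of both lists had opposite signs in the alleles. They were -0.26 in knockout and 0.06 in D489V for pericytes, and -0.28 and 0.15 for smooth muscle. In knockout against D489V, 3 genes of each list passed, against 14.8% of all genes. Of 14 endothelial genes, 0 had an unadjusted p under 0.05 in the pooled group, while 11 passed in knockout against D489V. Their median of -0.22 combined -0.51 in knockout with 0.09 in D489V. Apln, or apelin, a vessel ligand, was at 259 to 745 in controls and 113 to 436 in mutants, with 9 of 10 mutants below all controls and a log2 change of -0.91. Fgf2, an angiogenic growth factor, had a log2 change of 0.34. Both are from a list of angiogenic ligands with 10 genes tested, of which 7 had a log2 change above 0 and 3 below. Its median was 0.11. At an unadjusted p under 0.05, 1 was higher (Fgf2) and 1 was lower (Apln), against 1.58% and 2.2% of all genes.

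In several lists the alleles had medians of opposite sign, which the pooled value averages. The immediate early genes, which neurons, muscle and vessel cells switch on within minutes of a stimulus, had a median of 0.16 that combined -0.34 in knockout with 0.68 in D489V. Of 25 such genes, 2 were higher at an unadjusted p under 0.05 in the pooled group, against 1.58% of all genes. In knockout against D489V, 17 passed the adjusted threshold, against 14.8% of all genes. That count of 2 ran from 0, without control 1 or control 2, to 4, without control 4. The 2 were Ccn2, a matricellular growth factor, and Atf3, a stress transcription factor, at 0.52 and 0.67, with no allele difference passing. Adipocyte genes had a median of 0.84, with -0.18 in knockout and 1.59 in D489V, and their summed level was 11373 to 108673 in controls. In knockout it was 16451 to 36166, and in D489V samples it was 40090 to 146312. Summed erythroid genes were at 8146 to 10783 in controls and 6298 to 11951 in knockout, and at 14704 to 25040 in D489V samples, above every other sample. The B cell, T cell and lymph node venule list had 1.12 in knockout and -0.30 in D489V.

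Gadd45gip1 encodes a protein of the mitochondrial ribosome. It was the only one of 14 genes of the mitochondrial ribosome list with an unadjusted p under 0.05, against 3.78% of all genes. Its normalized counts were 1052, 997, 906, 935 and 1063 in controls. They were 656, 644, 1017, 741 and 832 in knockout and 661, 662, 721, 550 and 599 in D489V samples. All mutants except knockout 3, at 1017, lay below every control. Gadd45gip1 had a log2 change of -0.50 (standard error 0.117, limma adjusted p 0.693), -0.37 in knockout and -0.64 in D489V.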

How the data were processed

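Directional libraries of poly(A) RNA from 15 muscle samples were sequenced, per the labels' protocols. Trim Galore 0.6.0, cutadapt, FastQC, STAR 2.7.0e, DESeq2 1.26.0 and the build GRCm38 are named in the submitters' processing notes, without their order. The deposited values, treated as a score, are gene counts after the authors' normalization and rounding, per the tables' names. The counting tool, its strand setting and the normalization step are not given in the sources used here. The values come in 2 deposited tables joined by gene identifier. The 5 control columns were identical in both, and the median ratio to the geometric mean was 1.0069 to 1.0097 in all samples, so a single scale was used. All 55536 identifiers matched GENCODE M21. As values were rounded after scaling, no count model was used.

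Genes that reached a value of 10 in 5 or more of 15 samples entered linear models on log2(value + 1) in limma 3.58.1 (R 4.3.3, moderated two-sided tests with a mean-variance trend), with knockout and D489V as 1 group against control. Genes were called at an adjusted p under 0.05. A fit of 3 groups gave the changes per allele and a test of both alleles that took the larger p of the 2. Exact permutation tests used all 3003 divisions of 10 against 5. Groups and replicate numbers came from the labels.

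Named genes are Pdgfrb, called or non-overlapping genes with a mean of 50 or more, and at most 5 members per list by lowest p. From the lists, members were named where the unadjusted p was under 0.05 or the values bore on the text. Cyp2f2, Gm13453, Clip4, Trmt61b, Wdr43, Ndc80, Pttg1, Gm7335, Spdl1 and list members outside that rule were named after their values were seen. The comparison, its members and the gene lists were chosen with earlier results of these data known. Alternatives changed the pseudocount, filter, scaling, variance model, weights and block, or left out samples. Leaving out the 4 samples richest in lymphoid markers was chosen after seeing the data.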

Additional observations from a re-analysis of the deposited data

Results flagged for a closer look

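By the knockout less D489V contrast of the 3 group limma fit, the alleles differed from each other for 10 of the 68 genes examined. Among all genes tested, 14.8% passed that contrast, so the count is near the share over all genes. The difference on the log2 scale was 0.51 for Pdgfrb (adjusted p 0.0192), -0.46 for Pdgfb (adjusted p 0.0117), -0.35 for Heyl (adjusted p 0.0421) and -0.96 for Cdkn1a (adjusted p 0.0293). It was 1.14 for Per2 (adjusted p 0.0498), 0.81 for Nfil3 (adjusted p 0.0116) and -3.84 for Pttg1 (adjusted p 8.94e-06). It was also -0.43 for Pdgfra (adjusted p 0.0485), -0.44 for Dusp6 (adjusted p 0.00606) and -0.59 for Spry2 (adjusted p 0.0101). For these genes the pooled value is an average of unequal changes.

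Single samples stood apart from the rest of their group in 9 of 204 groups of 5 examined, where chance gives 10.2; the gap to the nearest sample, as a share of the group's range, exceeded 0.71. Knockout 1 was low for Atf3, at 108 against 348 to 459 (share 0.808), and for Mki67, at 44 against 154 to 246 (share 0.726). Knockout 3 was high for Klf15, at 1248 against 812 to 874 (share 0.829), and low for Igf1, at 469 against 918 to 993 (share 0.895). It was also high for Fbxo32, at 1267 against 388 to 455 (share 0.866), and low for Pdgfra, at 371 against 607 to 662 (share 0.85), and for Spry2, at 325 against 380 to 400 (share 0.753). Control 4 was high for Apln, at 745 against 259 to 306 (share 0.842), and control 5 was at 0 for Gm7335 against 3 to 6 (share 0.712).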

How the results depend on the processing

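The number of genes called in the mutants against control was 2 and ran from 0 to 5 over 28 alternatives. It was 1 with no filter on low values, with a mean of 50 or more and without the 4 samples richest in lymphoid markers, 4 with array weights, and 5 in the fit of 3 groups. It was 0 with the replicate number as a block, which the labels do not explain: same-numbered samples of different groups correlated at -0.37 to 0.35 over 15 pairs, with the own number best in 3, so the numbers were not taken as pairs. Leaving out 1 sample gave 0 to 3 calls. The number called in both alleles was 0. It was 0 to 2 when 1 sample was left out, 2 without control 5 and 1 without knockout 1, and 1 without the 4 samples richest in lymphoid markers. Pdgfrb had log2 changes of -0.77 to -0.66, and passed only in the fit of 3 groups, at -0.70 (limma adjusted p 0.0275). Togaram2 kept its direction in 28 of 28 alternatives and lost its call in 10, and Cyp2f2 lost it in 16 of 27. Over the 65 other genes named, 1796 of 1810 values kept their direction and side of the threshold, 0 lost a call and 7 gained one (Gm13453, Clip4 and Pttg1). Direction reversed in 7, all near 0: Pdgfd (-0.12 to 0.01 as single samples were left out; 0.01 without control 3), Ccne2 (-0.02 to 0.38; -0.02 without control 1), Pcna (-0.01 to 0.06; 0 or -0.01 without controls 1, 2 or 3 or knockout 4) and Pdgfrl (0.05 without the 4 samples richest in lymphoid markers). For the lists of PDGF ligands and receptors, transducers, satellite cells, myogenic regulators and fibro-adipogenic progenitors, leaving out 1 sample moved the counts at an unadjusted p under 0.05 by at most 1 gene in either direction. The causes of these shifts were not tested. With normalized, rounded values the reads behind a value are not known exactly, which limits genes under about 10 counts, Cyp2f2 in controls among them.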
